A study of Mus musculus with 12 samples.

Results

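In vivo iSEPs, induced stratified epithelial progenitor cells that were converted from Pdgfra-positive adipose-derived stromal cells (ADSCs) within the animal and then put into culture, were compared with primary keratinocytes of back skin. The comparison takes 6 of the 12 RNA sequencing libraries of the series, 3 per group, chosen by their labels alone, and covers the 12364 of 24537 listed genes that reached 1 FPKM (fragments per kilobase of transcript, scaled to sequencing depth) in at least 3 of the 12 libraries. The other libraries are 3 of ADSCs, grown with 10% serum from subcutaneous adipose tissue, and 3 of in vitro iSEPs, ADSCs converted in culture. In vivo iSEPs, in vitro iSEPs and keratinocytes were grown in the same serum-free keratinocyte medium. Every sample, keratinocytes included, came from Pdgfra-creERxLSL-tdTomato mice, which carry an inducible Cre recombinase driven by Pdgfra and a red reporter that Cre switches on. Per the series' design text 3 animals gave 1 culture of each kind, so mouse 1, mouse 2 and mouse 3 stand for the same animals in every group. The sources used here give neither the age and sex of the mice nor how converted cells were kept apart from the host's own epithelium. Sex shows in the expression values. The female transcript Xist was at 28.7 and 43.8 FPKM in the in vivo iSEPs and keratinocytes of mouse 1. In those of mice 2 and 3 it was at most 0.02. The Y-linked gene Ddx3y was at 0.023 and 0 in mouse 1 and at 12.1 to 26.9 in mice 2 and 3. Mouse 1 was thus female and mice 2 and 3 male, so what sets mouse 1 apart cannot be told from sex. The study is known for introducing the genes of the transcription factors Trp63, Grhl2, Tfap2a and Myc, and whether reads of introduced copies enter the values of these genes is not given either.

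Stratified epithelium such as epidermis renews itself from a basal layer that makes keratins 5 and 14, depends on the transcription factor p63 and is anchored to a basement membrane. Its upper layers build tight junctions, desmosomes and a cornified envelope, and secrete kallikrein proteases that later free the surface cells. Stromal cells of fat hold no such junctions, make collagen-rich matrix, and keep a record of their body position in Hox, Tbx and engrailed genes. The comparison asks how near cells of stromal origin came to a natural keratinocyte, gene by gene.

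The 6 libraries held an estimated 23560000 to 27610000 reads over the listed genes, of which 10845 to 11296 were at or above 1 FPKM. Across genes, on the log2(FPKM + 1) scale, keratinocyte libraries correlated with each other at 0.981 to 0.995 and in vivo iSEP libraries at 0.905 to 0.963. Between the groups the correlations were 0.912 to 0.934. In vivo iSEPs of mice 1 and 3, at 0.905, were thus less alike than any pair of an in vivo iSEP and a keratinocyte library. The median SD of a gene was 0.117 in keratinocytes and 0.253 in in vivo iSEPs. Mouse 3 gave the in vivo iSEP library least like the other two, and mouse 1, by less, the keratinocyte library least like the other two. All 8 defining keratinocyte markers (Krt5, Krt14, Trp63, Cdh1, Itga6, Itgb4, Col17a1 and Epcam) were above 0 in all 6 libraries. They were also above 0 in every ADSC library, with sums of 12.5 to 13.8 FPKM, so presence alone does not set the cell types apart. The summed FPKM of 12 fibroblast markers was 10.5 to 42.9 in in vivo iSEPs, 28.7 to 37.9 in keratinocytes and 5240 to 7357 in ADSCs. Summed immune cell markers (19 genes) came to 12.9 to 24.1 against 6.24 to 11.5 in keratinocytes, with 10 to 11 of the 19 at 0 in in vivo iSEPs, and 13 endothelial cell and pericyte markers to 15.1 to 20.7 against 5.23 to 8.91. Cd68 gave most of the immune sum in each in vivo iSEP library (9.78, 22.3 and 13.8). In each keratinocyte library Cd14 was the highest of the 19 (6.99, 3.48 and 4.41). Of the 13, Notch3 was the highest in all 6 libraries, at 10.7, 13.2 and 13.9 against 5.215, 3.78 and 3.48. In the 18 markers of secretory or glandular epithelium the in vivo iSEPs of mice 1 and 2 (56.2 and 46.2) were far below the keratinocytes (641.8 to 680.7), and those of mouse 3 (630) were not, with the claudin gene Cldn4 the highest of the 18 in all 6 libraries. The 10 neural and glial markers reached 118 in 1 in vivo iSEP library, mostly Tubb3, against 7.74 to 12.6 in keratinocytes. In such bulk samples fewer cells of a type and less RNA per cell cannot be told apart, and the part of any other cell type in the results below was not tested.

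Between in vivo iSEPs and keratinocytes 925 genes passed the test (adjusted p below 0.05, limma, Benjamini-Hochberg over all genes tested), which is 7.48% of those tested. Of these 421 (3.41%) were higher in in vivo iSEPs and 504 (4.08%) lower, and 244 and 274 of them differed by at least 2-fold on the log2(FPKM + 1) scale. The 3 libraries of each group did not overlap for 3436 genes, or 27.8% (1439 higher, 11.6%, and 1997 lower, 16.2%), and for 923 of the 925. With libraries scaled to a common median the split turned to 515 higher and 396 lower, 56.5% higher in place of 45.5%. Over all genes the log2 difference had a median of -0.05.

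These counts depended most on mouse 2. Without its in vivo iSEPs 204 genes were higher and 191 lower, and without its keratinocytes 183 and 175. Leaving out all samples of mouse 2 left 22 and 13, while leaving out all of mouse 1 gave 575 and 795 and all of mouse 3 gave 267 and 432. Without the in vivo iSEPs of mouse 3 the counts were 668 and 941, without those of mouse 1 641 and 1035, and without the keratinocytes of mouse 1 or 3 they were 288 and 320 or 208 and 216. Of the 925 genes 327 passed whichever single library of the 6 was left out, and genes that did not are named as such where they are described. A fit on the 6 libraries alone called 235 higher and 189 lower. Among genes described below that passed with each single library left out, Acta2, Cgn, Col8a1, Dlk2, Fgf18, Gadd45g, Gapdhs, Hoxc4, Krt79, Moxd1, Prl2c5, Serpinb6c and Sox2 were not called in that fit (highest adjusted p = 0.0891). Among in vivo iSEPs the library of mouse 2 was the nearest to keratinocytes for 37 of the 421 higher genes and 29 of the 504 lower ones, the fewest of the 3.

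To place each gene, the difference between keratinocytes and ADSCs was used as a ruler. There 53.5% of genes passed the test, and 27.5%, or 3401, also differed by at least 2-fold, 1816 higher in keratinocytes and 1585 lower. On this ruler ADSCs stand at 0% and keratinocytes at 100% of the log2 distance, and the median in vivo iSEP position was 82.6% for genes high in keratinocytes and 97.3% for genes low in them. For 84.4% of the 3401 genes (2872) in vivo iSEPs were not told apart from keratinocytes, which does not show that they were equal. Against ADSCs 47.6% of all genes passed. Another 169 of the 3401 were called different from keratinocytes and not told apart from ADSCs, 55 of them higher in in vivo iSEPs and 114 lower. These are described as staying at the stromal level, although some lay part of the way to keratinocytes or, as Rpl39l, past ADSCs. A further 267 lay in between, called against both (95 higher and 172 lower), 12 lay past the ADSC level on the far side from keratinocytes (11 higher and 1 lower), and 81 lay past keratinocytes (47 higher and 34 lower). The remaining 396 called genes stood outside the ruler, since ADSCs and keratinocytes did not both pass the test and differ by 2-fold on the log2(FPKM + 1) scale. Without both libraries that stand apart (in vivo iSEPs of mouse 3 and keratinocytes of mouse 1, chosen after seeing the data) these counts were 247, 277, 27, 148 and 467. Without all samples of mouse 2 they were 12, 11, 2, 1 and 9. The comparisons against keratinocytes and against ADSCs share the in vivo iSEP libraries, so these counts are a description.

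**Figure D1:**
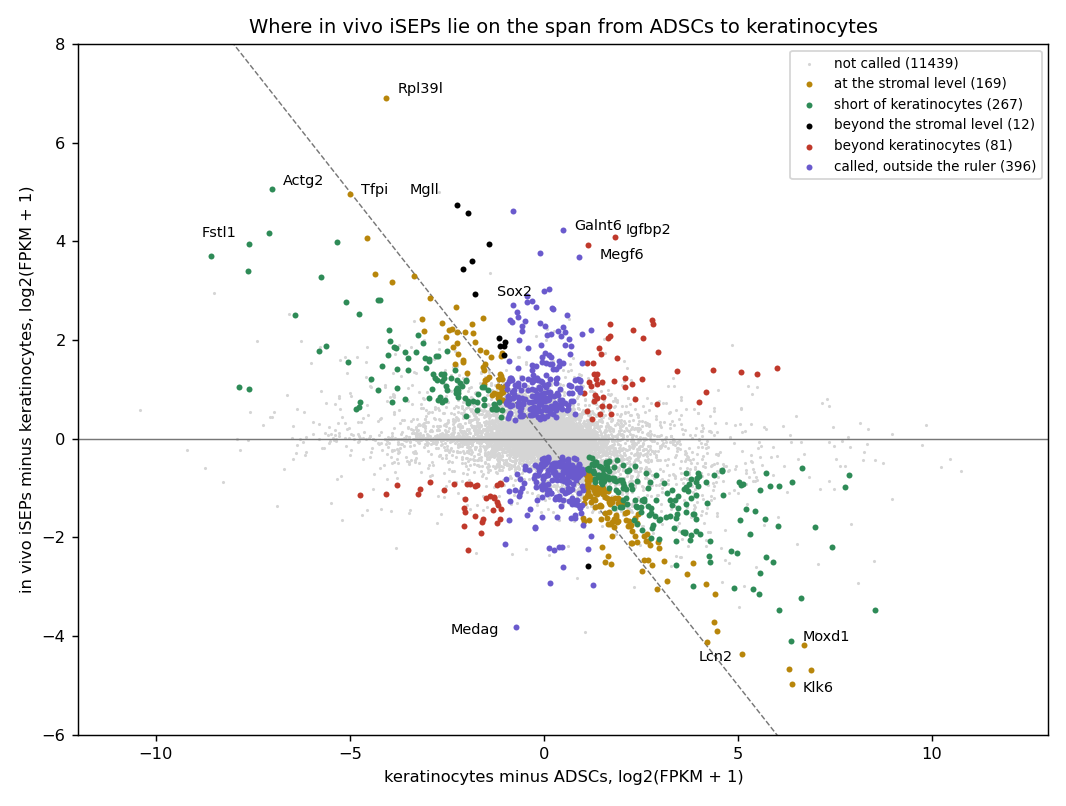
Each point is 1 of the 12364 genes, with the difference between keratinocytes and ADSCs on the x axis and between in vivo iSEPs and keratinocytes on the y axis, both in log2(FPKM + 1). On the horizontal line in vivo iSEPs equal keratinocytes and on the dashed line they equal ADSCs. The 169 genes at the stromal level were not told apart from ADSCs and lie around the dashed line, some of them off it, such as Rpl39l. The 267 short of keratinocytes lie between the lines, and the 81 beyond keratinocytes in the upper right and lower left.

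The keratins of the basal layer were not told apart between the groups. The 8 defining keratinocyte markers summed to 10480 to 20680 FPKM in in vivo iSEPs and 21260 to 22980 in keratinocytes, without overlap. Krt14 was at 9607, 6968 and 5621 FPKM in the in vivo iSEPs of mice 1, 2 and 3 and at 10770, 11410 and 11930 in keratinocytes (log2 difference -0.65 ± 0.22 (SE), adjusted p = 0.103). Its partner Krt5 was at 9804, 9252 and 3410 against 8758, 8692 and 9454 (adjusted p = 0.539). Both keratins were lowest in mouse 3. Of 20 basal keratinocyte genes tested 2 were higher, Bcam, a laminin receptor, and Dlk2, and none was lower (without both libraries that stand apart, 3 and 1). Over all genes 3.41% were higher and 4.08% lower. None of the 14 desmosome genes passed the test, and Perp, the most abundant, was at 2498, 2118 and 1672 FPKM against 2107, 2463 and 2185 (adjusted p = 0.837).

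The factors Grhl2, which opens epithelial gene loci, Tfap2a and Myc were not told apart from keratinocytes. Grhl2 was at 16.7, 12.6 and 10.6 FPKM against 20.4, 18.1 and 19.7 (adjusted p = 0.073), with all 3 in vivo iSEP libraries below all 3 of keratinocytes. Tfap2a was at 16.9, 14.7 and 14.1 against 25.3, 25.8 and 23 (adjusted p = 0.158), again without overlap. Myc was at 57.9, 80.4 and 63.9 against 56.3, 62.9 and 70.05 and overlapped (adjusted p = 0.901). Trp63, which encodes p63, was the exception, at 59.3, 156 and 80.7 FPKM against 35.1, 32.9 and 36.7, 2.82-fold higher in mean FPKM (adjusted p = 0.0216). That call was lost without the in vivo iSEPs of mouse 2 or without any 1 keratinocyte library (highest adjusted p = 0.0875).

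Of the mesenchymal hallmarks Pdgfra, Col1a1 and Vim none was told apart from keratinocytes. Pdgfra was at 0.158, 0.207 and 1.34 FPKM in in vivo iSEPs, 0.917, 0.908 and 0.68 in keratinocytes and 30.7 ± 13.2 (mean ± SD, n = 3) in ADSCs. Col1a1, the main fibrillar collagen, was at 0.673, 0.821 and 4.26 against 2.39, 2.05 and 1.49, and 1739 ± 133 in ADSCs. Neither passed the test (adjusted p = 0.671 and 0.829), and both were highest in the in vivo iSEPs of mouse 3. Vim (vimentin) was at 26.5, 47 and 148 against 19.1, 19.8 and 17.9 (adjusted p = 0.129), above keratinocytes in each of the 3 libraries.

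The keratin genes of simple epithelium told the libraries apart more than the groups. Krt8 was at 0.159, 0.166 and 103 FPKM in the in vivo iSEPs of mice 1, 2 and 3 and at 33.6, 21.9 and 27.9 in keratinocytes. Its partner Krt18 was at 2.79, 2.66 and 95.5 against 27.5, 30.1 and 37.3. For both keratins mouse 3 lay above keratinocytes and mice 1 and 2 below them, and neither passed the test (adjusted p = 0.343 and 0.445). Epcam, an epithelial adhesion gene, went with them, at 16.6, 6.87 and 116 against 162, 138 and 139 (adjusted p = 0.0626). Krt10, the keratin of the layers above the basal one, was at 5, 21.9 and 3.09 against 1, 0.747 and 0.702, above keratinocytes in all 3 without passing the test (adjusted p = 0.199). Of 6 simple keratin genes none passed, 3 were lower without both libraries that stand apart, and Krt7 was lower with mouse as a block (adjusted p = 0.0199).

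Among the genes that stayed at the high stromal level, Tfpi (mm10 chromosome 2, 84432860 to 84474174), an inhibitor of tissue factor in blood clotting, was the clearest. It was at 52.8, 71.8 and 58.5 FPKM in in vivo iSEPs, 1.52, 0.723 and 0.74 in keratinocytes and 54.9, 64.3 and 65.5 in ADSCs. In vivo iSEPs overlapped ADSCs and were 61.3-fold above keratinocytes in mean FPKM (log2 4.97 ± 0.19, adjusted p = 4.22e-07). Tbx15 (chromosome 3, 99253760 to 99354260), a T-box factor of adipose and dermal precursors, was at 30.9, 25.6 and 12.6 against 0.326, 0.36 and 0.336, and 30.7 ± 4.06 in ADSCs (log2 4.07 ± 0.31, adjusted p = 7.57e-05). Eng (chromosome 2, 32646595 to 32682669), the TGF beta co-receptor endoglin that marks mesenchymal stromal cells, was at 9.57, 14.5 and 8.87 against 0.331, 0.233 and 0.36 (log2 3.17, adjusted p = 0.000446). In each of these the lowest in vivo iSEP library was several times the highest keratinocyte library.

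Rpl39l had the largest rise of all, from 0.083, 0 and 0.042 FPKM in keratinocytes to 243, 123 and 63 in in vivo iSEPs of mice 1, 2 and 3 (log2 6.90 ± 1.18, adjusted p = 0.006). It encodes a variant of a ribosomal protein with a near-identical copy, Rpl39, so the assignment of its reads is uncertain. ADSCs were at 15, 24.2 and 12 and in vitro iSEPs at 71.2, 1.63 and 0.101. Acta2, the smooth muscle actin, was at 798, 2660 and 2943 against 438, 183 and 207 and 2045 ± 715 in ADSCs (adjusted p = 0.00705). Ror2, a receptor for Wnt5a, was at 5.72, 8.39 and 6.12 against 0.88, 0.393 and 0.311 (adjusted p = 0.000339), and Gjb2, the gap junction gene connexin 26 that wounded epidermis also uses, at 15.6, 17 and 7.76 against 3.66, 2.35 and 2.46 (adjusted p = 0.00507). Dnmt3l, a cofactor of DNA methyltransferases, was at 5.92, 4.12 and 1.89 against 0.06, 0.062 and 0.06 (adjusted p = 0.00222). Cdkn2a, the locus of p16 and Arf, was at 53.8, 49.1 and 167 against 23.5, 18.9 and 15.4 and 68.1 ± 14.5 in ADSCs (adjusted p = 0.0194, lost without the keratinocytes of mouse 2 or 3, highest adjusted p = 0.0863).

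Other stromal genes lay between ADSCs and keratinocytes. Sparc (chromosome 11, 55394159 to 55420080), a secreted collagen-binding protein, was at 178, 452 and 669.7 FPKM in in vivo iSEPs and 52, 11.8 and 12.7 in keratinocytes, with ADSCs at 2867 ± 247. That is 41.2% of the log2 distance from ADSCs to keratinocytes (log2 difference 4.17 ± 0.54 from keratinocytes, adjusted p = 0.0015), and the keratinocytes of mouse 1 were the highest of their group. Actg2, an actin of smooth muscle, was at 23, 57.3 and 112 against 1.37, 0.345 and 0.306 and 230 ± 123 in ADSCs (log2 5.07 ± 0.54, adjusted p = 0.000478). Fstl1, a secreted follistatin-like protein, was at 34.7, 83.7 and 66.6 against 3.67, 2.77 and 2.13 and 746 ± 112 in ADSCs (log2 3.95 ± 0.30, adjusted p = 7.57e-05). Fkbp10, a collagen chaperone, was at 67.7, 76.5 and 95.2 against 9.05, 2.8 and 2.41 (16.8-fold, adjusted p = 0.000398). For these genes the libraries of in vivo iSEPs and keratinocytes did not overlap. That was a condition for naming them, and it held for 27.8% of all genes. The 11 muscle cell markers, Actg2 among them, summed to 24.3 to 190 FPKM in in vivo iSEPs and 84.3 to 103 in keratinocytes. In keratinocytes nearly all of the sum was the actin gene Acta1, at 101, 90.6 and 83.6. Actg2 was the highest of the 11 in each in vivo iSEP library. In in vivo iSEPs 2 to 3 of the 11 were at 0, and the part of muscle cells was not tested.

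Over the list of 33 mesenchymal and fibroblast genes tested, 6 were higher and none lower, beside 3.41% and 4.08% of all genes. They were Sparc, Col5a2, Tagln, Eng, Acta2 and Col5a1, and the list's median log2 difference was 0.04 against -0.05 over all genes. Tagln (74.7, 478 and 848 against 31.2, 24.9 and 38.7 FPKM) and Col5a1 lost the call when 1 library was left out (highest adjusted p = 0.151), and Col5a1 with mouse as a block (adjusted p = 0.0537). Without both libraries that stand apart 5 were higher and 6 lower. Among 48 matrix proteins, proteases and inhibitors 8 were higher, with Sparc, the crosslinking enzyme gene Loxl2 (1.78, 16.6 and 29.5 against 0.064, 0.094 and 0.077), Fbln5 and Serpine2 leading, and 1, Mmp9, was lower (8 and 10 without those libraries). Loxl2, Lama5, Thbs2 and Mmp9 lost the call when 1 library was left out (highest adjusted p = 0.173), and Lama5 and Mmp9 with mouse as a block (adjusted p = 0.0698 and 0.0643). Of 24 collagen genes Col5a2, Col5a1 and Col8a1 were higher and Col5a3 lower (2 and 5 without those libraries), the last at 0.472, 0.082 and 1.26 against 4.38, 1.84 and 1.98 and lost without any 1 of 5 libraries (highest adjusted p = 0.202) or with the block (adjusted p = 0.0682).

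Transcription factors of mesenchyme and dermis were also among the higher genes. Of 32 tested 6 were higher, beside 3.41% of all genes, Tbx15, Twist1, En1, Zeb1, Emx2 and Hic1, and all 6 passed in each of the 9 processing alternatives and with each single library left out. Twist1, a driver of mesenchymal fate, was at 18.5, 12.9 and 5.48 FPKM in in vivo iSEPs against 0.714, 0.723 and 0.715 in keratinocytes and 31.4 ± 4.27 in ADSCs (adjusted p = 0.00134). Zeb1, a repressor of Cdh1, was at 2.26, 5.41 and 6.38 against 0.618, 0.567 and 0.591 (adjusted p = 0.00387), and En1, the engrailed gene of ventral limb and dermal lineages, at 3.97, 2.89 and 1.93 against 0.078, 0.149 and 0.143 (adjusted p = 0.00102). For Twist1 and En1 mouse 1 was the highest of the 3, and for Zeb1 it was the lowest. Foxc1 (2.81, 1.94 and 3.73 against 7.48, 8.05 and 7.33, adjusted p = 0.00846) and Runx2 were lower, Runx2 losing its call without any 1 of 4 libraries (highest adjusted p = 0.156).

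A set of 12 genes lay past the stromal level. Each of the 12 passed against keratinocytes in each of the 9 processing alternatives and with each single library left out, but their place past the stromal level was less stable, and the class held 7 genes without the keratinocytes of mouse 2, 6 without those of mouse 3 and 2 without all samples of mouse 2. Mgll (chromosome 6, 88724412 to 88828360), the lipase of monoglycerides, was at 25.7, 53.6 and 33.5 FPKM in in vivo iSEPs, 0.896, 0.16 and 0.199 in keratinocytes and 4.87, 5.82 and 6.03 in ADSCs (log2 4.74 ± 0.41 from keratinocytes, adjusted p = 0.000183). Ppp1r14a, an inhibitor of myosin phosphatase in smooth muscle, was at 17, 82.5 and 40.3 against 1.33, 0.527 and 0.316, and 5.6 ± 1.12 in ADSCs (adjusted p = 0.000398). Gpc3, a cell surface heparan sulfate proteoglycan, was at 31.5, 22.4 and 8.56 against 0.162, 0.276 and 0.309, and 2.38 ± 0.689 in ADSCs (adjusted p = 0.000398). For these genes every in vivo iSEP library was above every library of either natural cell type. Lying above all keratinocyte libraries was a condition for naming them. Sp100, a nuclear body protein, the glutathione transferase gene Gstm1 (19, 85.4 and 27.4 against 2.25, 2.42 and 2.41, adjusted p = 0.00107), the lipocalin gene Apod, the protease inhibitor gene Serpine2 and Wnt5a (26.1, 14.4 and 16.3 against 6.93, 3.33 and 3.13, adjusted p = 0.00236) were also among them.

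**Figure D2:**
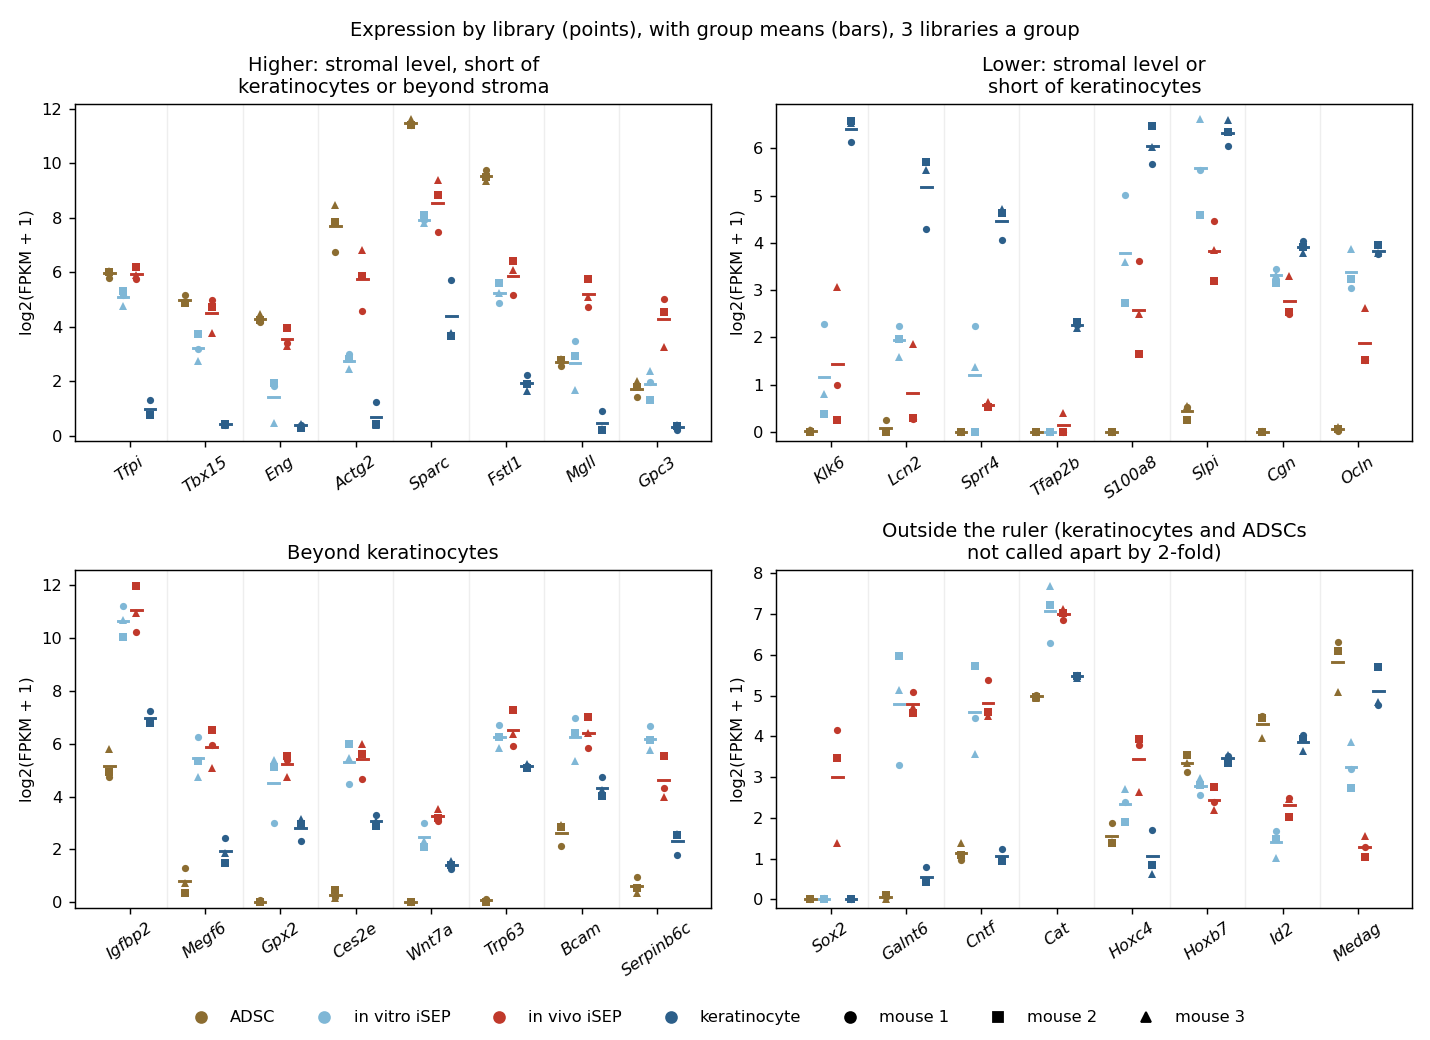
Expression in log2(FPKM + 1) of 32 genes in each of the 12 libraries, coloured by group, with the mouse as the marker shape and bars at group means of 3 libraries. In vivo iSEPs lie with ADSCs for Tfpi, between ADSCs and keratinocytes for Sparc and Fstl1, above both for Mgll and Gpc3, near ADSCs for Klk6 and Lcn2, and above keratinocytes for Igfbp2 and Wnt7a.

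On the other side stood keratinocyte genes that were low in in vivo iSEPs, at the stromal level or short of keratinocytes. Kallikreins are secreted serine proteases that cut desmosomes at the skin surface, and Slpi and Wfdc18 belong to a family of protease inhibitors. Of 23 such epidermal protease and inhibitor genes 7 were lower and none higher, beside 4.08% and 3.41% of all genes, with a median log2 difference of -1.01 against -0.05 over all genes. Of the 7, 4 stayed at the stromal level and 3 lay short of keratinocytes. Klk6 (chromosome 7, 43825450 to 43832027) was at 0.977, 0.196 and 7.43 FPKM in in vivo iSEPs and 69.2, 94.2 and 92.2 in keratinocytes, 29.7-fold lower (log2 -4.98 ± 0.63, adjusted p = 0.00137). Slpi was at 21, 8.16 and 13.4 against 65.6, 80.8 and 95.4 (adjusted p = 0.00683) and Wfdc18 at 0.066, 0 and 0.29 against 4.67, 3.84 and 3.02 (adjusted p = 7.57e-05). Klk7 was at 9.27, 3.54 and 25.4 against 65.8, 129 and 116 (adjusted p = 0.02) and Klk8 at 5.63, 0.943 and 92.5 against 195, 182 and 198 (adjusted p = 0.0357). In vivo iSEPs of mouse 3 were nearest to keratinocytes for all 3 kallikreins and those of mouse 2 farthest. Klk7, Klk8, Prss27 and Tmprss11e lost the call when 1 library was left out (highest adjusted p = 0.123), Klk8 and Tmprss11e in all cases but the in vivo iSEPs of mouse 3. Without both libraries that stand apart 8 of the 23 were lower. Mouse 3 was also the in vivo iSEP library with the high secretory marker sum given above, whose part here and in the junction genes was not tested.

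Antimicrobial and acute phase genes, which skin makes on wounding or infection, were lower in 4 of 12 cases and higher in none, beside 4.08% and 3.41% of all genes, and all 4 passed with each single library left out. Lcn2, an iron-withholding lipocalin, was at 0.211, 0.235 and 2.64 FPKM against 18.6, 51.6 and 45.5 in keratinocytes (37.5-fold lower, adjusted p = 0.000432). Ltf (lactotransferrin) was at 0.065, 0 and 0.173 against 65, 9.21 and 8.58 (adjusted p = 0.00199), with the keratinocytes of mouse 1 far above the other two. S100a8, a calprotectin subunit, was at 11.3, 2.13 and 4.62 against 49.7, 87.2 and 64.6 (adjusted p = 0.00462), and Slpi, given above, is the fourth. The cornified envelope gene Sprr4 was at 0.467, 0.433 and 0.548 against 15.7, 23.9 and 25.1 (44.6-fold lower, adjusted p = 0.000593). Yet 39 of the 41 suprabasal and cornified envelope genes tested did not pass. The other of the 2, Elovl4, lost its call without any 1 of 5 libraries (highest adjusted p = 0.202) and with mouse as a block (adjusted p = 0.062).

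Of the 12 largest falls 5 more are given here. Krtcap3 was at 0.358, 0.037 and 3.36 FPKM against 25.6, 19.7 and 24.3 (adjusted p = 0.00275), and Moxd1, a monooxygenase-like gene, at 5.96, 0.947 and 25.4 against 89.9, 141 and 139 (adjusted p = 0.00705). Prl2c5, a proliferin, was at 1.02, 0.907 and 26.1 against 59.2, 171 and 169 (adjusted p = 0.00834), and it has near-identical copies that may share reads. The chemokine gene Ppbp was at 5.23, 0.123 and 44.6 against 227, 156 and 147 (adjusted p = 0.035) and the chaperone gene Clu at 33.6, 18.7 and 485 against 675, 885 and 753 (adjusted p = 0.042). In all 5 mouse 3 was the highest in vivo iSEP library. It was still below keratinocytes, which was a condition for naming these genes. Ppbp and Clu lost the call without any 1 of the other 5 libraries (highest adjusted p = 0.12 and 0.164), and Ppbp with mouse as a block (adjusted p = 0.0546).

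Genes of tight, adherens and gap junctions were lower in 10 of 34 cases and higher in 1, beside 4.08% and 3.41% of all genes, with a median log2 difference of -0.64 and 31 of 34 below 0. Ocln (occludin, chromosome 13, 100497367 to 100552498) was at 1.87, 1.89 and 5.14 FPKM in in vivo iSEPs and 12.7, 14.6 and 12.7 in keratinocytes (log2 -1.95 ± 0.29, adjusted p = 0.00276), 48.5% of the way from ADSCs. Its relative Marveld2 (tricellulin, which seals the corners where cells meet) was at 0.584, 0.011 and 2.77 against 5.86, 7.24 and 7.12 (adjusted p = 0.0155). The barrier claudin gene Cldn1 was at 21.6, 32.9 and 99.9 against 169, 218 and 196 (adjusted p = 0.0103). In each, mice 1 and 2 were far below keratinocytes and mouse 3 nearer to them.

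Cgn (cingulin), a scaffold of tight junctions, was at 4.63, 4.79 and 8.8 against 15.5, 14 and 12.8 (adjusted p = 0.00647), lowest in mice 1 and 2. E-cadherin, encoded by Cdh1, was at 82.6, 151 and 160.2 against 209, 274 and 272 (87.3% of the way from ADSCs, adjusted p = 0.0459). Cdh3 and Cldn7 were also among the 10, and Gjb2, described above, is the gene that was higher. Ocln and Cgn passed with each single library left out, and the other 8 lost the call in at least 1 such fit (highest adjusted p = 0.188 among Cldn1, Marveld2, Cldn7, Cdh1 and Cdh3). Cldn7 and Cdh1 also lost it with mouse as a block (adjusted p = 0.0579 and 0.0708). Without both libraries that stand apart 18 of the 34 were lower.

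**Figure D3:**
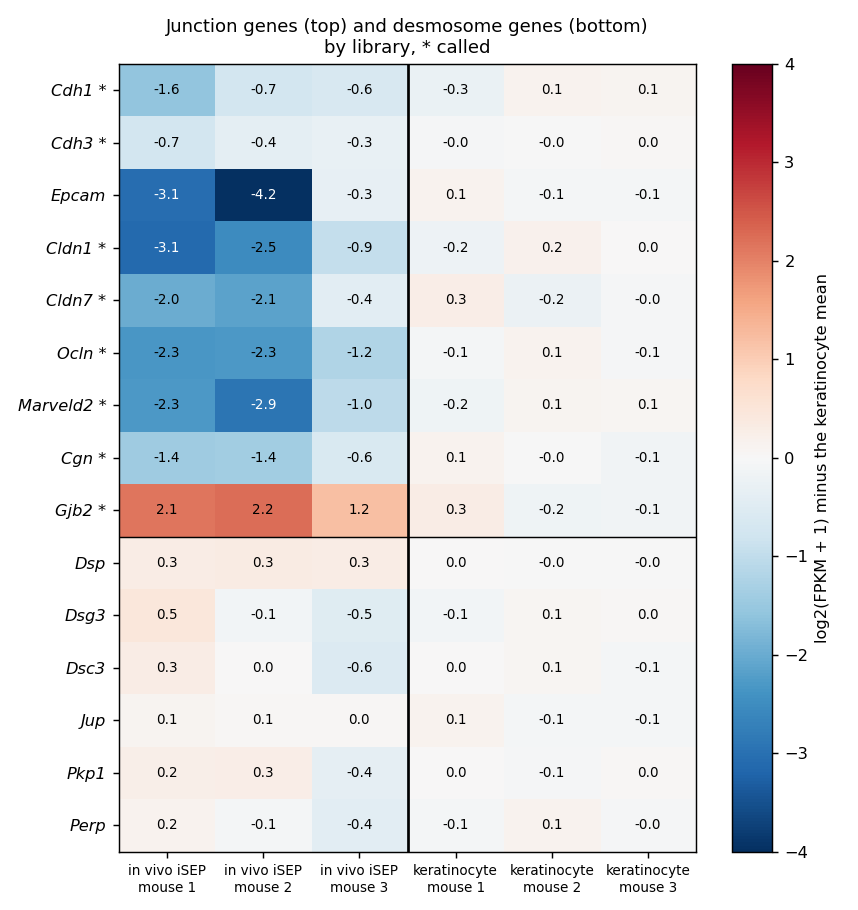
Junction genes (above the line) and 6 of the 14 desmosome genes (below it, chosen for this plot), as log2(FPKM + 1) minus the mean of the 3 keratinocyte libraries, in each of the 6 libraries. The called junction genes shown, other than Gjb2, are below the keratinocyte mean in all 3 in vivo iSEP libraries, least so in mouse 3, and the 6 desmosome genes shown stay within 1 log2 unit of it, while group mean differences over all 14 run from -1.23 to 1.24.

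The promoters of 2 kallikreins and of 2 tight junction genes are shown because both pairs were low in in vivo iSEPs, and they were chosen for their contrast in base composition. RefSeq sequences were used (build GRCm38.p6, mm10 coordinates), 150 bases before to 30 bases from each start, 5′ to 3′ on the gene's strand, with CpG dinucleotides in capitals. They are chr7:43825300-43825479 (plus strand), chr7:43811144-43811323 (plus strand), chr13:100552469-100552648 (minus strand) and chr13:100616942-100617121 (minus strand).
Klk6: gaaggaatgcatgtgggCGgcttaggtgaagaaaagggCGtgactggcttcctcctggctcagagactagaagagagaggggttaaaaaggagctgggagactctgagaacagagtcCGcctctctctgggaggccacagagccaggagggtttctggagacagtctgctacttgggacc
Klk7: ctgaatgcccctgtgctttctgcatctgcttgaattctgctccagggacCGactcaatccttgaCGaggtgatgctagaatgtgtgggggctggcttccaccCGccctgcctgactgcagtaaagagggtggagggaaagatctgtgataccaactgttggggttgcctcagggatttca
Ocln: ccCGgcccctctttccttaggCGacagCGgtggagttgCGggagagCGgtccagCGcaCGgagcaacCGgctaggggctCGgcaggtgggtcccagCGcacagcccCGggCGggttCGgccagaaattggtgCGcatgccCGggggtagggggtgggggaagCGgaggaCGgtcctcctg
Marveld2: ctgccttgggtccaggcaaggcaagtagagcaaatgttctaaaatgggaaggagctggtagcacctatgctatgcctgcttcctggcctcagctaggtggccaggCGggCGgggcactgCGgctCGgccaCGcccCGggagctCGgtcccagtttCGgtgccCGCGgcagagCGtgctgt
The kallikrein stretches hold 3 CpGs each, that of Ocln 17 and that of Marveld2 11. The contrast is not one of the gene groups, since in the longer window of 250 bases before to 50 after the start the third lower kallikrein, Klk8, held 23 CpGs, as many as Cgn, and Cldn1 held 15. A RefSeq promoter (250 bases before the start and 50 after) was matched for 8794 of the 12364 genes, with a median of 21 CpGs. Among genes high in keratinocytes, the 75 matched of the 114 that stayed at the low stromal level had a median of 12 CpGs, the 111 of 172 short of keratinocytes 17, the 1026 of 1482 not told apart from keratinocytes 19, and the 39 of 47 beyond keratinocytes 10. Among genes high in ADSCs the medians were 21 for the 45 of 55 that stayed at the stromal level, 22 for the 69 of 95 short of keratinocytes and 18 for the 885 of 1390 not told apart. The motif GCCNNNGGC, bound by AP-2 factors and identical on both strands, was in 25.5% of all matched promoters. Among genes high in keratinocytes it was in 21.3% of the 75, 27.9% of the 111, 25.4% of the 1026 and 20.5% of the 39. Among genes high in ADSCs it was in 42.2% of the 45, 34.8% of the 69 and 28.7% of the 885. Genes called higher and lower held it in 26.7% and 26.25%. Motifs of AP-1, the antioxidant response element and the E-box were also counted and are not reported here. Such matches describe letters and not binding.

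Of 24 epithelial transcription factors 3 were lower, Tfap2b and Elf3 among them, and 2 higher, Trp63 and Foxn1, beside 4.08% and 3.41% of all genes. The list's median log2 difference was -0.58 against -0.05 over all genes, with 16 of the 24 below 0. Tfap2b, a relative of the introduced Tfap2a, was at 0, 0 and 0.328 FPKM in in vivo iSEPs and 3.8, 3.98 and 3.56 in keratinocytes (adjusted p = 3.84e-05), and it was listed at 0 in all libraries of ADSCs and in vitro iSEPs. Elf3 was at 1.63, 0.479 and 3.11 against 21.8, 7.01 and 5.41, highest in the keratinocytes of mouse 1 (adjusted p = 0.0321, lost without the in vivo iSEPs of mouse 2 or the keratinocytes of mouse 1 or 2, highest adjusted p = 0.138). Foxn1, a factor of hair and differentiating epidermis, was at 4.04, 8.61 and 3.92 against 2.26, 1.61 and 1.27 (adjusted p = 0.0177, lost without the keratinocytes of mouse 2 or 3, highest adjusted p = 0.0839).

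Among 22 hair follicle and sebaceous genes Krt79, Vdr and Fzd7 were lower and Msx1 and Gli2 higher, beside 4.08% and 3.41% of all genes. The list's median log2 difference was -0.29 against -0.05 over all genes. Krt79, a keratin of the upper hair follicle, was at 0.017, 0.063 and 0.722 FPKM against 2.04, 17.9 and 12.2 in keratinocytes (adjusted p = 0.00799), and Vdr, the vitamin D receptor needed for hair cycling, at 18.3, 13.8 and 22.3 against 70.3, 62 and 57.4 and 13.8 ± 5.32 in ADSCs (adjusted p = 0.0019). The hedgehog effector gene Gli2 was at 2.13, 2.17 and 1.23 against 0.456, 0.119 and 0.139 (adjusted p = 0.0049), with ADSCs at 2.52 ± 0.35. Msx1 and Fzd7 lost the call when 1 library was left out (highest adjusted p = 0.0713 and 0.0959).

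The 81 genes beyond keratinocytes were led by Igfbp2 (chromosome 1, 72825387 to 72852471), which encodes a binding protein of insulin-like growth factors. It was at 1212, 4048 and 1965 FPKM in in vivo iSEPs, 151, 111 and 116 in keratinocytes and 25.4, 29.5 and 54.5 in ADSCs, so in vivo iSEPs were 19.1-fold above keratinocytes (log2 4.08 ± 0.44, adjusted p = 0.000497). In vitro iSEPs were at 2367, 1043 and 1637, within or just below the range of in vivo iSEPs. Megf6, an EGF-repeat protein gene, was at 60.5, 91.9 and 33.3 against 4.46, 1.79 and 2.65 (20.8-fold, adjusted p = 0.00073). The ligand gene Wnt7a was at 7.42, 8.22 and 10.5 against 1.42, 1.69 and 1.95 (adjusted p = 0.000832) with ADSCs at 0.007 ± 0.00608. In each of these genes mouse 2 or mouse 3 was the highest in vivo iSEP library. No library overlapped keratinocytes, which for Igfbp2 and Megf6 was a condition for naming them and held for 27.8% of all genes.

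Enzymes of detoxification were among them as well. Ces2e, a carboxylesterase, was at 24.2, 48.1 and 62.2 FPKM against 8.81, 6.32 and 7.54 (adjusted p = 0.0049), and Gpx2, a glutathione peroxidase of epithelia, at 40.8, 45.9 and 25.5 against 4.06, 6.76 and 7.97 (adjusted p = 0.018, lost without the in vivo iSEPs of mouse 2 or the keratinocytes of mouse 1 or 2, highest adjusted p = 0.0814). Of 29 retinoid, xenobiotic and oxidative stress genes 4 were higher, Gstm1, Gpx2, Cat and Gclm, and 1 lower, beside 3.41% and 4.08% of all genes (6 and 5 without both libraries that stand apart). Cat (catalase) was at 115, 129 and 138 against 44.6, 43.8 and 42 (adjusted p = 0.00651). Bcam was at 56.6, 128 and 84.7 against 25.8, 15.5 and 18 (adjusted p = 0.0113, lost without the in vivo iSEPs or the keratinocytes of mouse 2, highest adjusted p = 0.059) and Serpinb6c at 19, 46 and 15 against 2.42, 4.82 and 5.06 (adjusted p = 0.00573).

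Of the 396 called genes outside the ruler 213 were higher in in vivo iSEPs and 183 lower. Sox2, a factor of stem cells, oral and oesophageal epithelium and Merkel cells, was at 16.8, 10 and 1.63 FPKM in in vivo iSEPs of mice 1, 2 and 3, 0, 0.014 and 0 in keratinocytes, 0 in ADSCs and 0.032, 0.014 and 0 in in vitro iSEPs (log2 3.00 ± 0.51 against keratinocytes, adjusted p = 0.006). It was present in all 3 in vivo iSEP libraries, least in mouse 3, and lost its call in the fit on the 6 libraries alone (adjusted p = 0.0806). The other 6 of the 7 Merkel cell markers were below 1 FPKM in all 3. Galnt6, an enzyme that starts O-linked sugar chains, was at 33.2, 22.7 and 25.5 against 0.724, 0.335 and 0.392 (adjusted p = 0.000913), and the neurotrophic cytokine gene Cntf at 40.5, 23.1 and 21.6 against 1.35, 0.921 and 0.996 (adjusted p = 0.000793). In vitro iSEPs were at 8.93, 62.1 and 34 for Galnt6 and 21, 52.3 and 11 for Cntf. The gene 1500009L16Rik was at 18.4, 22.2 and 33.1 against 0.028, 0 and 0 (adjusted p = 0.000446). Gapdhs, the glycolytic enzyme of sperm and a copy of Gapdh, was at 11.4, 17.6 and 2.06 against 0.069, 0.072 and 0.115 (adjusted p = 0.00489). Cryaa, a lens crystallin, was at 8.67, 17.9 and 74.3 against 2.07, 0.493 and 0.444 (adjusted p = 0.0185, lost without the in vivo iSEPs of mouse 2 or the keratinocytes of mouse 2 or 3, highest adjusted p = 0.0805).

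Medag, a gene that promotes fat cell formation, led the lower ones, at 1.45, 1.06 and 1.95 FPKM in in vivo iSEPs against 26.3, 50.8 and 27.9 in keratinocytes and 79.3, 67.4 and 33 in ADSCs (23.6-fold below keratinocytes, log2 -3.81 ± 0.37, adjusted p = 0.000385). Id2, an inhibitor of basic helix-loop-helix factors, was at 4.61, 3.05 and 4.53 against 15.3, 14.4 and 11.5 (adjusted p = 0.00225). Of 24 genes of DNA methylation and Polycomb 4 were lower, Hmga2, Lin28b, Cbx2 and Dnmt3b, and Dnmt3l was higher. Over all genes 4.08% were lower and 3.41% higher. The list's median log2 difference was -0.33 against -0.05 over all genes. Lin28b, an RNA-binding protein of fetal and growing cells, was at 0.977, 0.024 and 1.3 against 7.51, 5.34 and 4.58 (adjusted p = 0.00164). Hmga2 was at 2.75, 0.864 and 7.58 against 16.5, 17.2 and 16.8 (adjusted p = 0.0237), and it and Dnmt3b lost the call when 1 library was left out (highest adjusted p = 0.0873 and 0.0556).

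Hox genes, which record position along the body axis, moved in both directions. Of 26 tested 5 were higher in in vivo iSEPs, Hoxc4, Hoxd8, Hoxc6, Hoxc5 and Hoxd9, and 4 lower, Hoxa3, Hoxa5, Hoxb7 and Hoxa7. Over all genes the shares were 3.41% and 4.08%, and the list's median log2 difference was -0.05, as over all genes. All the higher ones are of the c and d clusters and all the lower ones of the a and b clusters. Hoxc6, Hoxc5 and Hoxc4 are neighbours in the genome and may share reads, so this split is a description. Hoxc4 was at 12.8, 14.4 and 5.2 FPKM against 2.25, 0.803 and 0.554, and 1.99 ± 0.614 in ADSCs (adjusted p = 0.00404). Hoxd8 was at 4.46, 7.13 and 2.81 against 0.357, 0.517 and 0.298 (adjusted p = 0.00432), Hoxa3 at 0.028, 0.247 and 0.458 against 2, 1.94 and 1.91 (adjusted p = 0.00107) and Hoxb7 at 4.28, 5.74 and 3.55 against 10.6, 9.23 and 10.7 (adjusted p = 0.00582). These 4 did not overlap between the groups. Hoxc6 (14.7, 22.8 and 12.4 against 8.17, 2.37 and 1.93, 20.1 ± 1.27 in ADSCs) and Hoxa5 were at the stromal level, and the other 7 were outside the ruler. Hoxc6, Hoxc5, Hoxa5 and Hoxa7 lost the call when 1 library was left out (highest adjusted p = 0.165), and Hoxa7 with mouse as a block (adjusted p = 0.0843).

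Counts in the signalling lists are to be read beside the 3.41% of all genes called higher and 4.08% called lower. Of 34 Wnt pathway genes 5 were higher, the receptor genes Ror2 and Fzd6 and the ligand genes Wnt6, Wnt5a and Wnt7a, and 2 lower, Wnt9a and Fzd7. Wnt9a was at 6.12, 3.31 and 23.5 FPKM against 44.5, 53.7 and 53.8 (adjusted p = 0.0194). It, Wnt6, Fzd6 and Fzd7 lost the call when 1 library was left out (highest adjusted p = 0.181). Of 12 Notch pathway genes Notch3 (10.7, 13.2 and 13.9 against 5.21, 3.78 and 3.48, adjusted p = 0.00216) and Rfng were higher and none lower, Rfng losing its call without any 1 of 5 libraries (highest adjusted p = 0.119). Notch3 also stands among the 13 endothelial cell and pericyte markers, of which 3 could be tested. Of these Tek was higher too, at 0.785, 0.742 and 0.591 against 0.057, 0.044 and 0.078 (adjusted p = 0.00699). Of 33 TGF beta and BMP genes Fstl1 and Tgfbr2 were higher and Inhba, Id2 and Tgfbr1 lower, so the receptor chains went opposite ways, Tgfbr2 at 72.4, 126 and 78.8 against 33.3, 37.7 and 44.1 and Tgfbr1 at 8.58, 4.59 and 6.46 against 13.7, 13 and 12.1. Inhba, Tgfbr1 and Tgfbr2 lost the call when 1 library was left out (highest adjusted p = 0.14, 0.065 and 0.0851), and Inhba with mouse as a block (adjusted p = 0.051).

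Of 12 EGF receptor and ligand genes 3 were lower, the receptor gene Erbb3 (13.7, 6.92 and 11.8 against 32.7, 23.8 and 18.2 FPKM), the inhibitor gene Errfi1 and the sheddase gene Adam17, and none higher. Over all genes 4.08% were lower and 3.41% higher, beside which this and the counts that follow stand. All 3 lost the call when 1 library was left out (highest adjusted p = 0.193), and Adam17 with mouse as a block (adjusted p = 0.0508). Among 22 genes of FGF and PDGF signalling Spry1, a feedback inhibitor, was higher at 4.31, 5.43 and 5.54 against 1.83, 1.14 and 0.939 (adjusted p = 0.00219), as was Fgf18 at 0.838, 1.88 and 2.81 against 0.152, 0.09 and 0.065 (adjusted p = 0.00961). None of 24 YAP and TAZ targets passed the test. Of 43 cell cycle genes Ccnd3 was higher and Ccnd1, Cdc6 and Cdt1 lower, and each lost its call without any 1 of at least 3 libraries (highest adjusted p = 0.184), Cdc6 and Cdt1 also with the block (adjusted p = 0.0746 and 0.064). Without both libraries that stand apart 9 cell cycle genes were higher and 1 lower, so no direction is read from this list. Among 14 antigen processing genes the MHC class II genes H2-Eb1 (3.69, 1.77 and 2.59 against 0.2, 0.166 and 0.34) and H2-Ab1 were higher. Both calls were lost without the keratinocytes of mouse 2, that of H2-Ab1 also without the in vivo iSEPs of mouse 2 or the keratinocytes of mouse 1 (highest adjusted p = 0.0606 and 0.113). Of the immune cell markers, summed above, 4 could be tested, 2 with a log2 difference above 0 and 2 below. Cd68 alone passed the test (adjusted p = 0.00641). Of 22 interferon response genes 1, Ddx58, was lower, a call lost without any 1 of 5 libraries (highest adjusted p = 0.153) and with the block (adjusted p = 0.0672). No pluripotency gene of the 11 listed reached the level needed for testing.

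**Figure D4:**
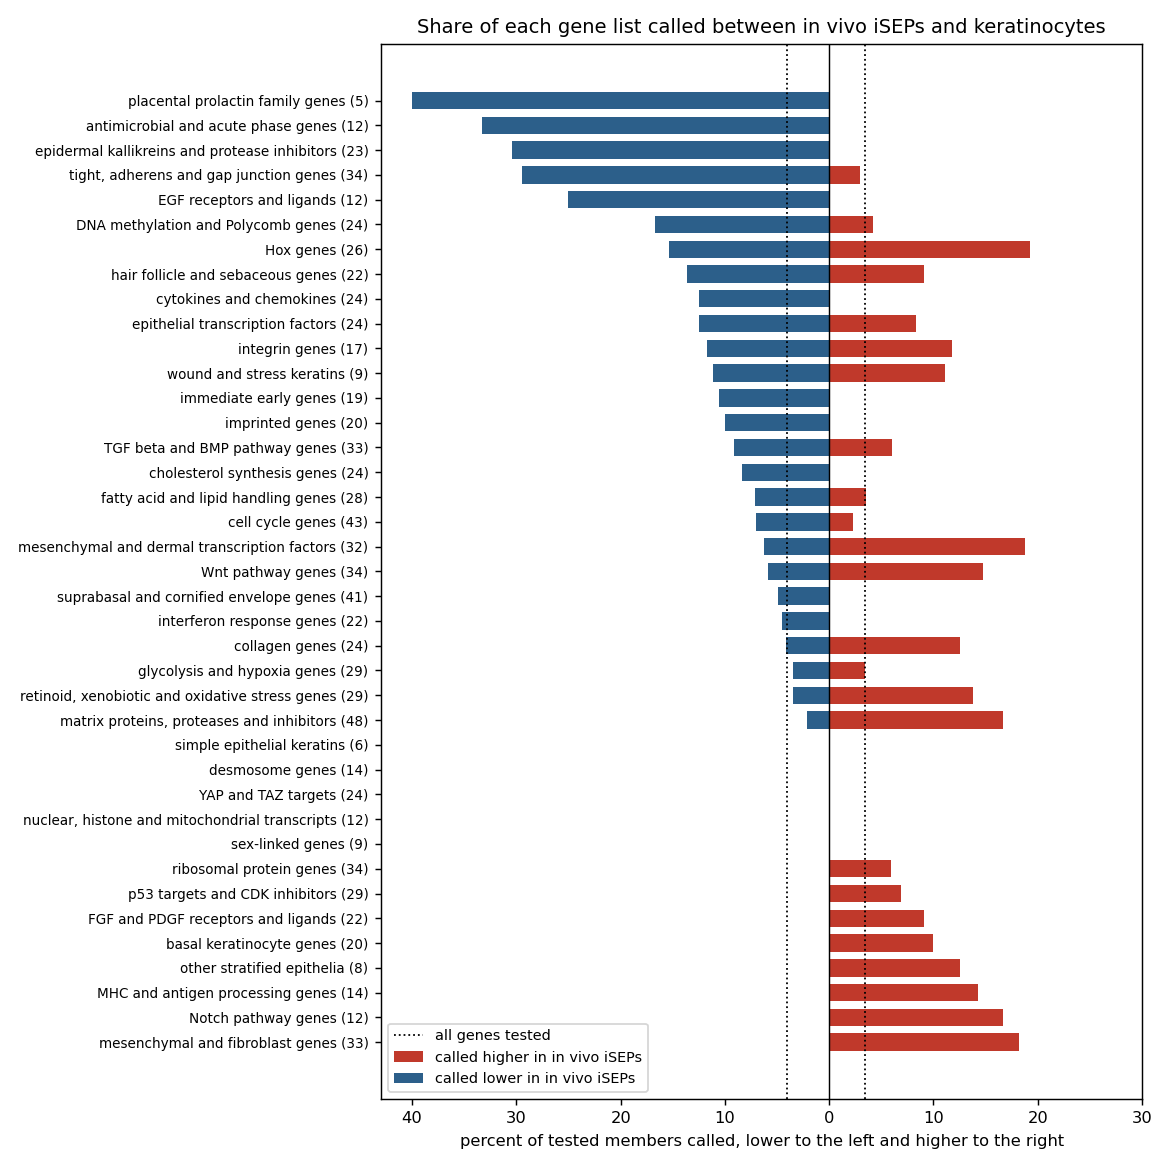
For each gene list with at least 5 tested members (number in brackets), the percent of members called lower in in vivo iSEPs (blue, to the left) and higher (red, to the right), with dotted lines at the shares of all genes tested, 4.08% and 3.41%. Antimicrobial, kallikrein and junction genes lean to the left and mesenchymal genes, their transcription factors and matrix genes to the right.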

How the data were processed

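RNA was sequenced from 12 cultures in 4 groups of 3. The authors deposited 1 table of FPKM values, made with HOMER from exon reads on the strand marked plus with 1 entry kept per gene, per the file headers. FastQC 0.11.5, STAR 2.5.1b, HOMER and the build mm10 are named in the submitters' processing notes. The library kit in the labels is a TruSeq RNA kit, and whether strand was kept is not given there, so antisense partners may share reads. Another 3 per-sample columns of the table match no label and were not used. Low values of every library were whole multiples of 1 read, which gave the read totals.

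Values were tested as log2(FPKM + 1), which understates changes of low genes, in limma 3.58.1 (R 4.3.3) with 4 group means over all 12 libraries and a mean-dependent variance trend, after keeping genes of at least 1 FPKM in at least 3 libraries. A gene was called at a Benjamini-Hochberg adjusted p below 0.05. Folds are ratios of mean FPKM, and 2-fold limits are on the log2(FPKM + 1) scale. The procedure was tested on simulated data in which a gene had the same spread in every group and mice had no effect. That test therefore does not cover the unequal spread of in vivo iSEPs and keratinocytes. Alternatives changed the pseudocount, filter, scaling, block, libraries in the fit, variance model and libraries left out, and leaving out both libraries that stand apart was chosen after seeing the data.

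Mouse numbers pair the samples, since the design text gives 3 animals for all groups. Deviations of same-numbered in vivo iSEP and keratinocyte libraries from their group means correlated at 0.03, 0.06 and -0.18 across genes for mice 1, 2 and 3.

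Members and gene lists were chosen with earlier results of these data known, so counts over lists are descriptions. Genes were named by rule: the 12 largest rises and 12 largest falls among called genes with no overlap and a mean of at least 5 FPKM in the higher group, the 6 largest differences in each class, up to 4 called members per list and direction, and 14 identity genes. Other genes named, the families of glutathione transferases, carboxylesterases, prolactins and smooth muscle genes among them, were chosen after their values were seen. Some genes that enter the counts are not reported here by name. Promoters come from RefSeq (GRCm38.p6), matched by symbol with a start within 100 bases of the deposited transcript start.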

Additional observations from a re-analysis of the deposited data

Results flagged for a closer look

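Of the 37 genes named for their size or class, 6 also differed between in vivo and in vitro iSEPs (adjusted p below 0.05, limma), a contrast in which 1.63% of all genes passed. The 37 genes were chosen for their values in the same 3 in vivo iSEP libraries, so this count is a description and is not to be read against that share. 1500009L16Rik was at 18.4, 22.2 and 33.1 FPKM in in vivo iSEPs and 0.329, 5.61 and 0.544 in in vitro iSEPs (log2 3.38 ± 0.48, adjusted p = 0.0106). Actg2 was at 23, 57.3 and 112 against 7.05, 6.05 and 4.48 (log2 3.00 ± 0.54, adjusted p = 0.0247). Mgll was at 25.7, 53.6 and 33.5 against 10.1, 6.6 and 2.2 (log2 2.52 ± 0.41, adjusted p = 0.0154). Both actin and lipase genes were higher in each in vivo library than in any in vitro one.

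Gpc3 was at 31.5, 22.4 and 8.56 in in vivo iSEPs against 2.93, 1.51 and 4.16 (log2 2.38 ± 0.40, adjusted p = 0.0182) and Ppp1r14a at 17, 82.5 and 40.3 against 10.2, 5.98 and 5.53 (log2 2.31 ± 0.46, adjusted p = 0.0356). Medag went the other way, at 1.45, 1.06 and 1.95 against 8.12, 5.64 and 13.6 in in vitro iSEPs (log2 -1.96 ± 0.37, adjusted p = 0.0299). Mgll, Gpc3 and Ppp1r14a belong to the 12 genes past the stromal level.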

How the results depend on the processing

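No called gene among those named reversed direction in any alternative, while some that were not called changed sign, Col1a1, Krt5, Myc and Perp among them. Of the 136 called named genes 61 passed in all 9 processing alternatives and with each single library left out. With each of the 6 libraries left out in turn, genes called higher numbered 183 to 668 and lower 175 to 1035, those at the stromal level 84 to 292, short of keratinocytes 104 to 390, beyond the stromal level 6 to 24, beyond keratinocytes 30 to 201, called outside the ruler 120 to 901, and not told apart 2575 to 3135. With mouse 1, 2 or 3 left out in all groups there were 575, 22 and 267 higher and 795, 13 and 432 lower, and the classes in that order held 242, 12 and 208, 330, 11 and 150, 19, 2 and 14, 88, 1 and 89, 691, 9 and 238, and 2671, 3046 and 2861. The fit on the 6 libraries alone, which has fewer samples to estimate the spread, called 235 higher and 189 lower. A pseudocount of 0.1 put 22 genes beyond the stromal level, and a 5 FPKM filter, which tests fewer genes, left 92 at it. Leaving out both libraries that stand apart put 27 beyond the stromal level and 148 beyond keratinocytes, and the cause was not tested. Asking for a 4-fold difference between keratinocytes and ADSCs left by construction 65 at the stromal level, 2 beyond it, 30 beyond keratinocytes and 1223 not told apart, and put 629 outside the ruler. Quantile normalization gave 511 higher and 436 lower, 54.0% higher. With mouse as a replicate block, the paired fit, 391 were higher and 454 lower (159 of the 925 lost, 79 gained), and the classes held 160, 261, 14, 71, 339 and 2895 genes in the order above. Among the genes described, the block changed no call other than those given beside them. Unadjusted p was below 0.05 for 2794 genes. Below about 1 FPKM the log2(FPKM + 1) scale compresses folds, so genes such as Tek or Marveld2 are measured with little depth.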

Other observations

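Of 24 cytokine and chemokine genes 3 were lower and none higher, beside 4.08% and 3.41% of all genes, with a median log2 difference of -0.67 against -0.05 over all genes (6 lower and 1 higher without both libraries that stand apart). The neutrophil chemokine gene Cxcl5 was at 0.626, 0.32 and 1.64 FPKM in in vivo iSEPs and 13.4, 7.96 and 8.6 in keratinocytes (adjusted p = 0.00624). The skin T cell chemokine gene Ccl27a was at 5.79, 9.58 and 4.63 against 16.7, 31.4 and 34.9, and the alarmin gene Il33 at 0.364, 0.649 and 0.086 against 1.47, 2.08 and 2.22. The calls of Ccl27a and Il33 were lost when 1 library was left out (highest adjusted p = 0.0863 and 0.148). Gadd45g, a stress-induced growth arrest gene, was at 18.1, 65.4 and 54.6 against 8.56, 7.5 and 8.08 (adjusted p = 0.00565, and 0.0691 in the fit on 6 libraries), one of 2 of 29 p53 targets and CDK inhibitors that were higher, with Cdkn2a, beside 3.41% of all genes (2 higher and 2 lower without both libraries that stand apart). Of 24 cholesterol synthesis genes 2 were lower, Ebp among them, of 29 glycolysis and hypoxia genes Egln3 was higher and Car9 lower, and of 17 integrin genes Itga1 and Itga8 were higher and Itgb6 and Itgb8 lower. Of the genes just named Car9 passed with each single library left out, and the others did not (highest adjusted p = 0.0882, 0.0512, 0.0645, 0.152, 0.143 and 0.141 for Ebp, Egln3, Itga1, Itga8, Itgb6 and Itgb8). Itga8 and Itgb8 also lost the call with mouse as a block (adjusted p = 0.0579 and 0.0528).

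Called genes stood side by side in the genome in 12 runs of 3 neighbouring tested genes with the same direction. Among the higher ones were Sp110, Sp140 and Sp100 on chromosome 1 (85576899 to 85701572), Gstm6, Gstm2 and Gstm1 on chromosome 3 (107938848 to 108017973), Ces2b, Ces2e and Ces2f on chromosome 8 (104831644 to 104955962) and Hoxc6, Hoxc5 and Hoxc4 on chromosome 15 (103009562 to 103036852). Among the lower ones were Klk8, Klk7 and Klk6 on chromosome 7 (43797577 to 43832027), Prl8a6, Prl8a9 and Prl8a1 on chromosome 13 (27432681 to 27582171) and Klra18, Klra4 and Klra12 on chromosome 6 (130043745 to 130306481). Members of such clusters can resemble each other in sequence, so shared reads cannot be told apart from shared expression. Ces2b, Klra12 and Klra18 lost the call with mouse as a block (adjusted p = 0.0653, 0.0694 and 0.055).

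Gstm2 was at 8.56, 44 and 12.8 FPKM against 0.64, 0.7 and 1.02 (adjusted p = 0.0014) and Gstm6 at 5.62, 20.5 and 11.6 against 0.61, 0.666 and 0.611 (adjusted p = 0.000782), and of 15 glutathione transferase genes 4 were higher and 1, Gstp3, lower. Of 7 prolactin family genes, which are best known from placenta, 4 were lower and none higher. Prl8a9 was at 2.07, 2.59 and 14.2 against 14.9, 83.8 and 86.3 (adjusted p = 0.0193, lost when 1 library was left out, highest adjusted p = 0.0911), and all 7 were lower without both libraries that stand apart. Of 17 smooth muscle contractile genes 5 were higher and none lower. Jph2, a junction protein of muscle membranes, was among the 5, at 3.33, 10.2 and 14.4 against 0.112, 0.308 and 0.465 (adjusted p = 0.00292). The glutathione transferase, prolactin and smooth muscle families were picked once their values had been seen. Their counts are therefore descriptions and cannot be weighed against the background shares, 3.41% higher and 4.08% lower.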
